A study of Danio rerio with 6 samples.

Results

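The extracellular matrix genes of the zebrafish embryo head were compared between embryos exposed to 6PPD, an antioxidant added to tire rubber, and embryos kept in the solvent DMSO. Members were taken by name: collagen chains, laminin chains, fibronectin, nidogens, fibrillins, elastin, sparc and its relatives, matrilins, tenascin C (tnc), periostins, versicans, aggrecans and perlecan (hspg2). The names matched 91 of the 32057 genes in the table. These 91 entries carry 89 names, since col6a3 and col19a1 each stand for 2 gene models. Averaged over the 6 libraries, 68 members reached 1 FPKM, and these were tested. FPKM counts fragments per length of the gene and per depth of the library, so levels of different genes can be set side by side per length.

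Each group held 3 libraries of poly(A) RNA, called biological replicates in the labels, and each library pooled the heads of 150 embryos at 2 days post-fertilization (dpf). In the 6PPD group the embryos were held in medium with 500 µg/L of the compound, starting at 10 hours post-fertilization (hpf), and the other embryos were in DMSO. Both groups were kept at 28 °C and were given PTU (0.003%), which blocks pigment formation, starting at 24 hpf. The labels name the tissue as brain, although whole heads were dissected. Nothing in the labels says whether the pools came from separate clutches, so p-values measure the spread between these 6 libraries. The title of the series names defects of brain vessels, oxidative stress and ferroptosis, an iron-dependent form of cell death.

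Matrix proteins are made in the secretory pathway and assembled outside the cell. Fibrillar collagens, such as types I, II and V, form the fibres of skin, connective tissue and cartilage. Basement membranes, the thin sheets under epithelia and around vessels, are built of laminins, collagen IV, nidogens and perlecan. Every collagen chain needs hydroxylation of its prolines and the help of chaperones before 3 chains can wind into a helix, and the helix is later trimmed and crosslinked.

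In the fit over all 15320 genes with at least 1 FPKM, 346 genes were called higher and 176 lower in 6PPD heads. A call is a Benjamini-Hochberg adjusted p under 0.05 in limma. With median-ratio scaling the split was 204 higher and 244 lower. The first principal component held 43.5% of the variance, with the 6PPD libraries at −16.9 to −15.3 and the DMSO libraries at 20.6, 22.8 and 4.70, so DMSO replicate 3 lay nearest to the 6PPD libraries. The depth in fragments is unknown, and the summed FPKM of a library was 434480 to 442660 in 6PPD heads and 434260 to 472120 in DMSO heads. Markers of many tissues were present besides those of neurons. The summed FPKM of the neuron list was 1612 to 1766 in 6PPD heads and 1489 to 1627 in DMSO heads. Lens markers summed to 2775 to 4236 in 6PPD heads and 3023 to 3814 in DMSO heads, and markers of the periderm, the outer layer of the embryonic skin, to 4406 to 5950 in 6PPD heads and 5100 to 9247 in DMSO heads.

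The matrix genes were well represented in the heads. Together the 91 members held 0.520%, 0.576% and 0.547% of the summed FPKM in the 6PPD libraries and 0.550%, 0.504% and 0.619% in the DMSO libraries, so the groups overlapped. The highest member was sparc (osteonectin, a collagen-binding glycoprotein), with a mean of 339 FPKM over the 6 libraries and rank 197 among all genes. The next were col2a1a, the chain of cartilage collagen II, at 280 FPKM, col1a1a, a chain of collagen I, at 199 FPKM, and matn4, a matrilin, at 187 FPKM. Then came col1a2 at 136, postnb at 133, col1a1b at 132 and col9a2 at 121 FPKM. Within this order col1a2, postnb and col1a1b differed from each other by less than their spread between libraries. Among basement membrane genes the highest was col4a5 with 53.4 FPKM.

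**Figure D1:**
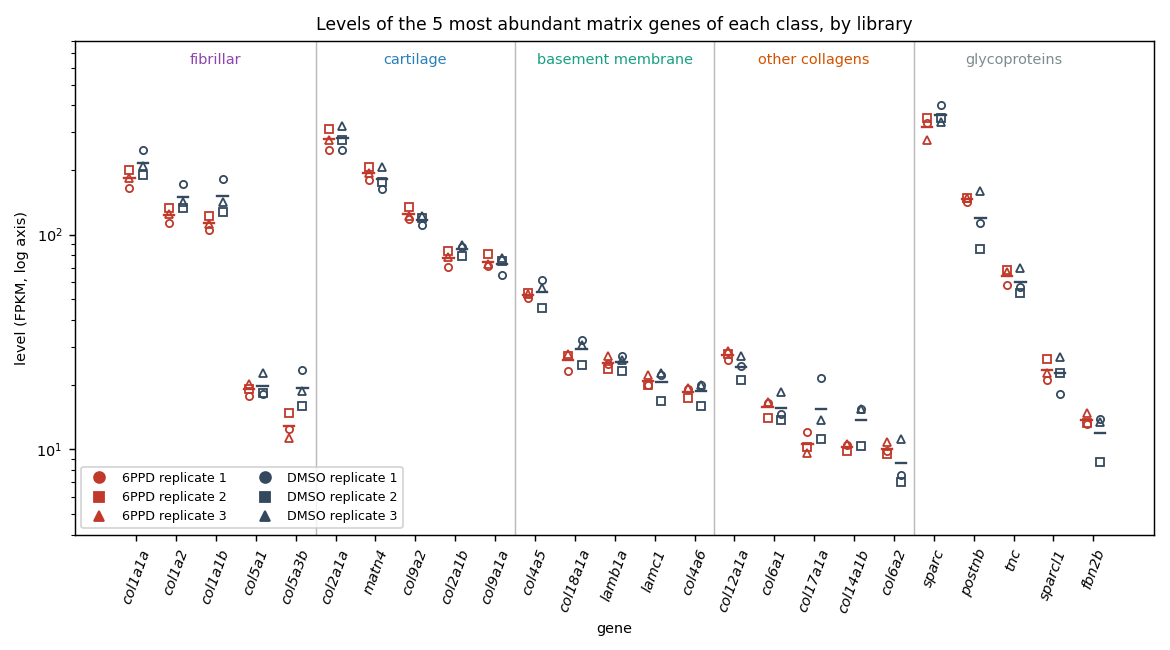
Level in FPKM (log axis) of the 5 most abundant genes of each class, in each 6PPD library (red, left) and each DMSO library (dark, right). Symbols mark the replicates and short lines the group means, and the levels run from 400.1 FPKM for sparc in DMSO replicate 1 to 7.04 FPKM for col6a2 in DMSO replicate 2, with the groups overlapping for most genes.

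Levels of the matrix genes in 6PPD heads lay close to those in DMSO heads. None of the 68 tested members was called, 0 higher and 0 lower. Over all tested genes 3.41% were called, 2.26% higher and 1.15% lower, a share that would give few calls among 68 genes. At an unadjusted p under 0.05, limma placed 0 members higher and 5 lower, against 13.4% of all tested genes higher and 6.93% lower. The count of lower members lay near that share, and the count of higher members lay below its share. The 5 were col5a3b, col1a1b, col14a1b, col1a2 and col17a1a. The smallest adjusted p was 0.0741, for col5a3b.

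The log2 fold changes of the 68 members, 6PPD over DMSO on the log2(FPKM + 1) scale, ran from −0.55 to 0.34. Their median was −0.00, with 33 above and 35 below 0. Over all tested genes the median was 0.06, and 61.5% were above 0. The median SE was 0.13 for the members and 0.13 for all tested genes. All 68 of the 95% intervals lay within 1 log2 unit of 0, and 48 lay within 0.5, a 1.41-fold difference of FPKM + 1. For genes near 1 FPKM this scale narrows differences, so the intervals do not bound the fold of FPKM itself. The shorter col6a3 model, with means of 1.27 FPKM in 6PPD heads and 0.871 FPKM in DMSO heads, had 0.28. With a pseudocount of 0.1 the counts of intervals within 1 and 0.5 were 65 and 34, and after rescaling to TPM 68 and 33. Groups did not overlap for 2 members that were higher (lama1 and nid1b) and 4 that were lower (col1a1b, col5a3b, nid1a and col17a1b) in 6PPD heads. That is 8.82% of the tested members, where 26.3% of all tested genes had groups that did not overlap (17.1% higher and 9.18% lower).

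**Figure D2:**
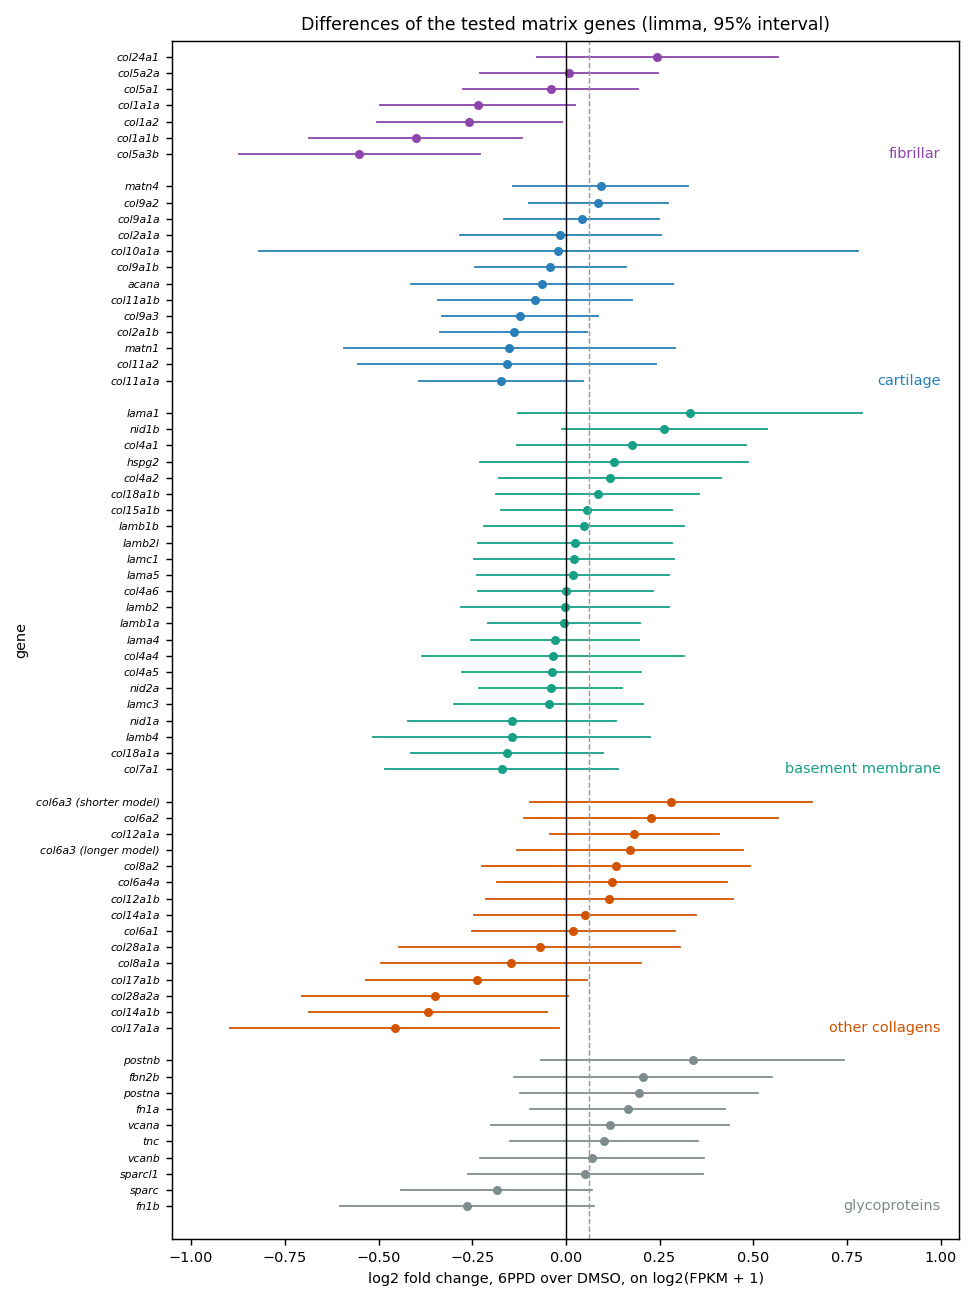
Log2 fold change of each of the 68 tested matrix genes, 6PPD over DMSO on log2(FPKM + 1), with its 95% interval from limma, grouped and coloured by class. The solid line marks 0 and the dashed line the median of all tested genes (0.06), and every interval stays within 1 log2 unit of 0.

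The highest and lowest values of the members often fell in DMSO libraries. DMSO replicate 3 had the highest value of the 6 libraries in 26 of the 68 tested members and the lowest in 0, and DMSO replicate 2 had the lowest value in 31. Over all tested genes DMSO replicate 3 was highest in 22.7% and DMSO replicate 2 lowest in 28.5%, against 38.2% and 45.6% of the members. DMSO replicate 1 was highest in 19 members. Leaving out DMSO replicate 3 gave 1 call, postnb, and leaving out DMSO replicate 2 gave 1 other, col14a1b, both described below.

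Among fibrillar collagens the 3 chains of collagen I and the collagen V chain col5a3b had lower means in 6PPD heads, and the means of the other tested collagen V chains differed by at most 0.04 on the log2 scale. Chains of collagens II and XI are counted in the cartilage class below, with log2 fold changes of −0.17 to −0.02. Of the 10 members of the fibrillar class 7 were tested, and their median log2 fold change was −0.24, with 5 negative and 2 positive. Limma called 0, with 0 higher and 3 lower at an unadjusted p of 0.05. Over all tested genes 61.5% were positive, and 13.4% were higher and 6.93% lower at the unadjusted p. Leaving out single libraries gave medians of −0.32 to −0.13 for the fibrillar class. The class summed to 432, 506 and 468 FPKM in 6PPD heads and to 661, 498 and 553 FPKM in DMSO heads (468 ± 36.9 FPKM in 6PPD heads and 571 ± 82.8 FPKM in DMSO heads, SD, n = 3 each). The second 6PPD library lay above the second DMSO library, so the sums overlapped.

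The chain col5a3b, an alpha 3 chain of collagen V, which joins the fibrils of collagen I, lies on chromosome 1 at 59252435 to 59287507 (GRCz11, ENSDARG00000101816). It had 12.5, 14.7 and 11.2 FPKM in 6PPD heads, against 23.4, 15.9 and 18.7 FPKM in DMSO heads. All 6PPD values were below all DMSO values, with the gap between 14.7 and 15.9. The log2 fold change was −0.55 (SE 0.14, 95% interval −0.87 to −0.23), the most negative of the members, at limma's adjusted p = 0.0741.

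Collagen I is the main collagen of skin and later of bone, and zebrafish build it from the products of col1a1a, col1a1b and col1a2. The gene col1a1b (chromosome 12, 3095699 to 3133483, ENSDARG00000035809) had 105, 121 and 112 FPKM in 6PPD heads and 182, 127 and 142 FPKM in DMSO heads. These groups did not overlap, and the log2 fold change was −0.40 (SE 0.13, 95% interval −0.68 to −0.12, limma adjusted p = 0.121). For col1a1a (chromosome 3, 23221047 to 23239458, ENSDARG00000012405) the values were 165, 201 and 183 FPKM in 6PPD heads and 249, 189.5 and 209 FPKM in DMSO heads. Here the groups overlapped, with a log2 fold change of −0.24 (SE 0.12, limma adjusted p = 0.289). The third gene, col1a2 (chromosome 19, 40983221 to 41002980, ENSDARG00000020007), had 114, 133 and 125 FPKM in 6PPD heads and 173, 132 and 141 FPKM in DMSO heads. Its log2 fold change was −0.26 (SE 0.11, limma adjusted p = 0.227), and the second libraries of the groups again met. In all 3 genes DMSO replicate 1 was the highest library.

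Both other tested chains of collagen V had overlapping groups. The gene col5a1 had 17.8, 19.0 and 20.2 FPKM in 6PPD heads and 18.0, 18.3 and 22.6 FPKM in DMSO heads (log2 fold change −0.04, 95% interval −0.27 to 0.19), and the means of col5a2a were 12.8 ± 0.735 FPKM in 6PPD heads and 12.8 ± 1.62 FPKM in DMSO heads (0.01, −0.23 to 0.25). The fibrillar chain col24a1 was low, with 4.60, 3.72 and 3.18 FPKM in 6PPD heads and 2.77, 2.93 and 3.49 FPKM in DMSO heads, for a difference of 0.24 on the log2 scale (limma adjusted p = 0.368). Below the filter were col27a1b, col5a3a and col5a2b, at means of 0.480, 0.256 and 0.155 FPKM.

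Both lists of skin markers also had negative medians. Basal epidermis, the skin layer that sits on the basement membrane, was represented by 15 markers, 1 of them the matrix gene lamb4, and krt93 was the one below the filter. Of the 14 tested, 13 had a negative log2 fold change, the median was −0.25, 7 lower and 1 higher passed an unadjusted p of 0.05, and 0 were called. The list summed to 1331 to 1391 FPKM in 6PPD heads and to 1553 to 2344 FPKM in DMSO heads. Its highest library, like that of collagen I, was DMSO replicate 1, at 2344 FPKM with 1554.5 FPKM next. That library was also highest in the basement membrane class (279 FPKM, next 274), the bone list (63.5, next 62.4) and the ear vesicle list (524, next 473). Its summed FPKM over all genes was highest too (472120, next 458780). The keratin krt5 had 311, 315 and 325 FPKM in 6PPD heads and 648, 413 and 399 FPKM in DMSO heads (limma adjusted p = 0.0963). Of the 17 periderm markers, all tested, 16 were negative with a median of −0.46, 0 higher and 11 lower passed the unadjusted p, and 4 were called lower. Over all tested genes 6.93% were lower at the unadjusted p and 1.15% were called lower. The 4 periderm genes were agr1 (−0.93, adjusted p = 0.0453), krt1-19d (−0.46, adjusted p = 0.0257), cldne (−0.46, adjusted p = 0.047) and zgc:175088 (−0.51, adjusted p = 0.0184), each by limma. The first 3 kept a call in 1 of the 6 fits that left out a library, and zgc:175088 in 3. In pooled heads, fewer cells of a type and less RNA per cell cannot be told apart. The part of skin RNA in the collagen values was not tested.

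**Figure D3:**
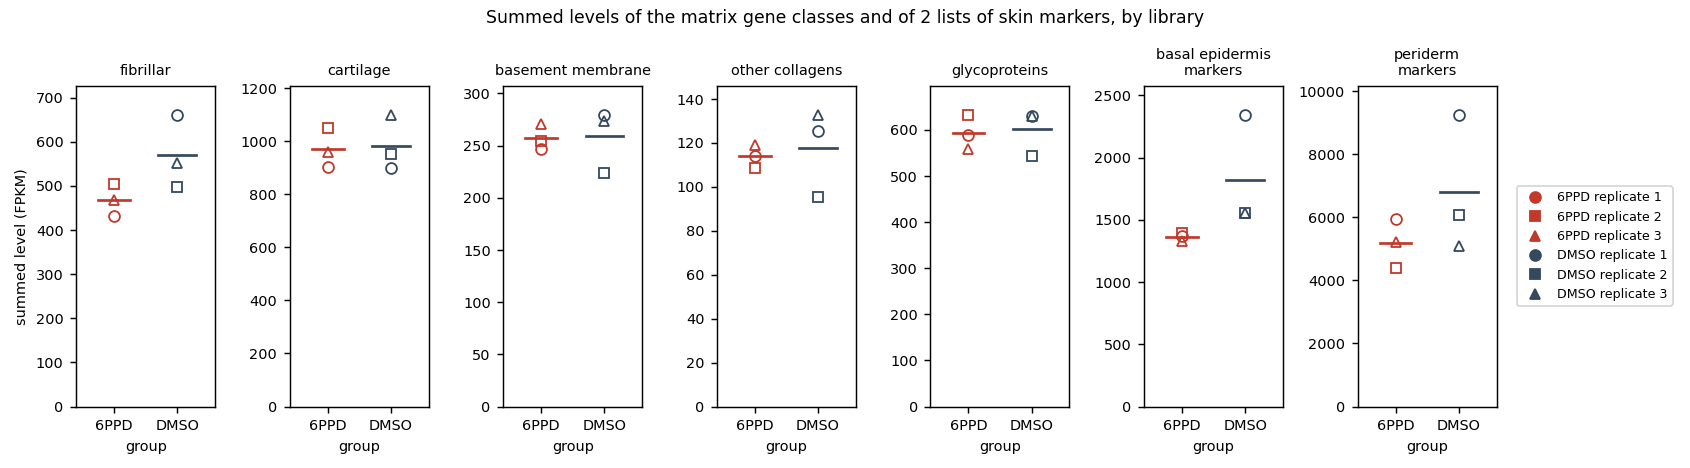
Summed level in FPKM of the members of each matrix class and of the basal epidermis and periderm marker lists, for the 6PPD libraries (red, left) and DMSO libraries (dark, right), each panel with its own axis from 0. Lines are group means. DMSO replicate 1 stands highest in the fibrillar class (661 FPKM), in the basement membrane class (279 FPKM) and in both skin lists (2344 and 9247 FPKM).

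Cartilage collagens and matrilins did not separate the groups. This class takes in the chains of collagens II, IX, X and XI, the aggrecans and matn1, matn3a, matn3b and matn4, and 13 of its 17 members were tested. The median log2 fold change was −0.06, with 3 positive and 10 negative, where 61.5% of all tested genes were positive. Limma called 0, 0 passed an unadjusted p of 0.05 and 0 had groups that did not overlap, and the smallest adjusted p was 0.35. The shares over all tested genes were 3.41% called, 13.4% higher and 6.93% lower at the unadjusted p, and 26.3% without overlap. The class summed to 970 ± 72.6 FPKM in 6PPD heads and 984 ± 104 FPKM in DMSO heads (n = 3 each).

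The most abundant chain, col2a1a (chromosome 8, 21195420 to 21219473, ENSDARG00000069093), had 248, 309.8 and 277 FPKM in 6PPD heads, against 248, 275 and 321 FPKM in DMSO heads. The log2 fold change was −0.02 (SE 0.12, 95% interval −0.28 to 0.25). Its paralog col2a1b averaged 77.8 ± 6.44 FPKM in 6PPD heads and 85.7 ± 5.16 FPKM in DMSO heads (−0.14, limma adjusted p = 0.4). Collagen IX sits on the surface of collagen II fibrils, and its chain col9a2 had 118, 134 and 123 FPKM in 6PPD heads and 111, 119 and 123 FPKM in DMSO heads (0.09, limma adjusted p = 0.582). The partner chains col9a1a (0.04), col9a1b (−0.04) and col9a3 (−0.12) also had overlapping groups, as did the aggrecan acana (−0.06). Among these genes the libraries of the 2 groups interleaved.

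The matrilin matn4, an adaptor between matrix fibres, had 179.6, 207 and 193 FPKM in 6PPD heads and 163, 175 and 207 FPKM in DMSO heads (0.09, limma adjusted p = 0.644). Its relative matn1, typical of cartilage, had 42.0, 40.3 and 32.7 FPKM in 6PPD heads, against 31.9, 39.7 and 60.1 FPKM in DMSO heads. DMSO replicate 3 stood highest there, as it did for col11a2, a chain of collagen XI, which had 15.6, 18.4 and 16.2 FPKM in 6PPD heads and 15.3, 16.3 and 26.4 FPKM in DMSO heads. Among the other collagen XI chains, col11a1a had the smallest p of the class, with 53.9 ± 2.73 FPKM in 6PPD heads and 61.2 ± 7.26 FPKM in DMSO heads (−0.17, limma adjusted p = 0.35). Its paralog col11a1b had 20.3, 23.8 and 25.3 FPKM in 6PPD heads and 24.5, 21.4 and 27.9 FPKM in DMSO heads (−0.08, limma adjusted p = 0.714). The widest interval of the tested members belonged to col10a1a, a chain of collagen X, a marker of hypertrophic cartilage and, in fish, also of bone-forming cells. It had 6.60, 1.71 and 3.17 FPKM in 6PPD heads and 2.04, 3.75 and 5.20 FPKM in DMSO heads, so no direction could be read (−0.02, 95% interval −0.82 to 0.78). Of 15 tested markers of cartilage cells outside the members, limma called 0, with 1 higher and 0 lower at an unadjusted p of 0.05 and a median of 0.11. Of 5 tested bone markers it called 0, with 0 and 0 at the unadjusted p and a median of 0.06. Among all tested genes 3.41% were called, and 13.4% were higher and 6.93% lower at the unadjusted p.

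Basement membrane genes were the largest class, with 29 members of which 23 were tested. Their median log2 fold change was −0.00, with 11 positive and 12 negative. Limma called 0, 0 passed an unadjusted p of 0.05, and the smallest adjusted p was 0.265. Of all tested genes 61.5% were positive and 3.41% were called, with 13.4% higher and 6.93% lower at the unadjusted p. The class summed to 257 ± 12.3 FPKM in 6PPD heads and 259 ± 30.8 FPKM in DMSO heads.

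Collagen IV is the network-forming collagen of basement membranes. The chains col4a1 and col4a2, which together form its most widespread trimer, were low in these heads. Their levels were 3.27, 3.30 and 3.42 FPKM for col4a1 in 6PPD heads and 3.45, 2.33 and 2.81 FPKM in DMSO heads (0.18, 95% interval −0.13 to 0.48). For col4a2 they were 3.79, 4.16 and 4.48 FPKM in 6PPD heads and 3.98, 3.08 and 4.22 FPKM in DMSO heads (0.12, 95% interval −0.18 to 0.41). The chains col4a5 and col4a6 stood higher, with 50.6, 53.7 and 53.1 FPKM of col4a5 in 6PPD heads and 61.2, 45.6 and 56.1 FPKM in DMSO heads (−0.04, limma adjusted p = 0.865). The values of col4a6 were 19.0, 17.3 and 19.2 FPKM in 6PPD heads and 19.9, 15.9 and 19.9 FPKM in DMSO heads (−0.00, limma adjusted p = 0.997). The last pair, col4a3 and col4a4, lay near the filter, and col4a4, at a mean of 1.02 FPKM, was tested (−0.03).

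Laminins are cross-shaped trimers of an alpha, a beta and a gamma chain. The most abundant in these heads were lamb1a, with 25.3 ± 1.78 FPKM in 6PPD heads and 25.4 ± 1.99 FPKM in DMSO heads, and lamc1, with 20.7 ± 1.31 FPKM in 6PPD heads and 20.6 ± 3.31 FPKM in DMSO heads. Their log2 fold changes were −0.00 (95% interval −0.21 to 0.20) and 0.02 (−0.24 to 0.29). Among the alpha chains, lama4 (12.2 FPKM over all libraries), found in vessel walls, and lama5 (6.80 FPKM) had log2 fold changes of −0.03 and 0.02. The remaining tested chains, lamc3, lamb1b, lamb2, lamb2l and lamb4, lay between −0.15 and 0.05.

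The alpha chain lama1 (chromosome 24, 41690545 to 41784173, ENSDARG00000102277), used early in the eye and brain, had 3.72, 3.74 and 3.89 FPKM in 6PPD heads. In DMSO heads it had 3.71, 1.63 and 3.44 FPKM. The groups did not overlap, although 3.72 and 3.71 nearly met, and the DMSO mean was pulled down by replicate 2. The log2 fold change was 0.33 (95% interval −0.13 to 0.79, limma adjusted p = 0.392).

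Nidogens link laminin to collagen IV. The most abundant over the 6 libraries, nid2a, averaged 15.0 ± 0.407 FPKM in 6PPD heads and 15.5 ± 0.927 FPKM in DMSO heads (−0.04). The gene nid1b had 15.5, 14.3 and 17.4 FPKM in 6PPD heads and 14.1, 10.8 and 14.2 FPKM in DMSO heads, above without overlap (0.26, 95% interval −0.01 to 0.54, limma adjusted p = 0.265). Its paralog nid1a lay below without overlap, with 2.04, 1.99 and 2.12 FPKM in 6PPD heads and 2.15, 2.32 and 2.66 FPKM in DMSO heads (−0.14, limma adjusted p = 0.535).

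Further proteins of the basement membrane had overlapping groups. Perlecan (hspg2), a heparan sulfate proteoglycan, had 2.50 ± 0.354 FPKM in 6PPD heads and 2.23 ± 0.571 FPKM in DMSO heads (0.13). The gene col18a1a, whose protein is the precursor of endostatin, had 26.0 ± 2.56 FPKM in 6PPD heads and 29.2 ± 3.92 FPKM in DMSO heads (−0.16, limma adjusted p = 0.467), and its paralog col18a1b 2.48 ± 0.200 FPKM in 6PPD heads and 2.28 ± 0.119 FPKM in DMSO heads (0.08). The chain col15a1b had 15.8 ± 0.798 FPKM in 6PPD heads and 15.2 ± 1.79 FPKM in DMSO heads (0.06). Collagen VII anchors the epidermis to the dermis, and its chain col7a1 had 1.55 ± 0.109 FPKM in 6PPD heads and 1.89 ± 0.354 FPKM in DMSO heads (−0.17, limma adjusted p = 0.509). Endothelial markers, from cells that rest on such a membrane, had 25 tested members with a median of 0.13. Of these 21 were positive and 4 negative, where 61.5% of all tested genes were positive. At an unadjusted p of 0.05 limma placed 3 higher and 1 lower, against 13.4% and 6.93% of all tested genes. Limma called 0 higher and 1 lower, where 2.26% of all tested genes were called higher and 1.15% lower. The endothelial gene called lower was plvapb (−0.40, limma adjusted p = 0.0489), which kept its call in 1 of the 6 fits that left out a library. The summed FPKM of the endothelial markers was 143 to 153 in 6PPD heads and 129.9 to 147 in DMSO heads. Of 9 tested mural cell markers 0 were called, with 1 higher and 0 lower at the unadjusted p and a median of 0.00.

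The other collagens had a median log2 fold change of 0.05 over 15 tested of 22 members, with 9 positive and 6 negative and 0 called. Of all tested genes 61.5% were positive and 3.41% were called. Several of the other collagens belong to skin. Collagen XVII is a membrane protein of hemidesmosomes, which hold basal keratinocytes to the basement membrane, and its gene col17a1a (chromosome 1, 49568335 to 49605854, ENSDARG00000069415) had 12.0, 10.2 and 9.63 FPKM in 6PPD heads. In DMSO heads it had 21.5, 11.2 and 13.6 FPKM, with DMSO replicate 1 far above the rest and the groups overlapping. Its log2 fold change was −0.46 (SE 0.20, limma adjusted p = 0.229). The paralog col17a1b had 2.28, 2.38 and 2.68 FPKM in 6PPD heads and 3.62, 2.81 and 2.82 FPKM in DMSO heads, below without overlap (−0.24, limma adjusted p = 0.338). The same DMSO library was highest in the basal epidermis list, with 2344 FPKM and 1554.5 FPKM in the next library. It was highest as well in the basement membrane class (279 FPKM, next 274) and in summed FPKM over all genes (472120, next 458780). The part of skin RNA in the collagen XVII values was not tested.

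Collagen XIV binds to fibril surfaces, and col14a1b (chromosome 19, 49721 to 61467, ENSDARG00000076623) had the smallest p of this class. It had 10.4, 9.86 and 10.6 FPKM in 6PPD heads, against 15.4, 10.4 and 15.5 FPKM in DMSO heads, where replicate 2 alone sat at the level of the 6PPD libraries. The log2 fold change was −0.37 (95% interval −0.68 to −0.05, limma adjusted p = 0.186). Without DMSO replicate 2 it was −0.54 at an adjusted p of 0.0428, and the gene was called lower. In the same direction, col28a2a had 6.95, 6.23 and 7.28 FPKM in 6PPD heads and 11.2, 6.75 and 9.39 FPKM in DMSO heads (−0.35, limma adjusted p = 0.253).

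Collagen XII, another fibril-associated collagen, and collagen VI, which forms beaded filaments around cells, had positive or near-zero values. The chain col12a1a averaged 27.5 ± 1.31 FPKM in 6PPD heads and 24.2 ± 3.05 FPKM in DMSO heads (0.18, limma adjusted p = 0.338). Of collagen VI, col6a1 averaged 15.7 ± 1.43 FPKM in 6PPD heads and 15.6 ± 2.51 FPKM in DMSO heads (0.02), and col6a2 averaged 10.1 ± 0.703 FPKM in 6PPD heads and 8.59 ± 2.22 FPKM in DMSO heads (0.23, limma adjusted p = 0.425). The 2 models named col6a3 overlap on 1 strand of chromosome 9, so the authors' counting may have split their fragments. Their log2 fold changes were 0.17 for the longer and 0.28 for the shorter. The other tested chains of this class, col6a4a (0.12), col8a2 (0.13), col12a1b (0.12), col8a1a (−0.15), col28a1a (−0.07) and col14a1a (0.05), had overlapping groups.

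The glycoprotein class had the highest median, 0.11, with 8 of 10 tested members positive, 0 called and 0 past the unadjusted p. Over all tested genes 61.5% were positive. The glycoprotein class holds 13 members and summed to 594 ± 36.7 FPKM in 6PPD heads and 601 ± 50.5 FPKM in DMSO heads. Its most abundant gene, sparc (chromosome 14, 25937948 to 25956860, ENSDARG00000019353), had 329.8, 348 and 276 FPKM in 6PPD heads and 400.1, 349.8 and 333 FPKM in DMSO heads. The groups overlapped (log2 fold change −0.18, limma adjusted p = 0.39).

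Periostin is a matricellular protein of connective tissue. On the log2(FPKM + 1) scale, postnb (chromosome 15, 32710094 to 32741733, ENSDARG00000104267) had the largest positive log2 fold change of the tested members. The low gene lama1 was next at 0.33, and this scale narrows the differences of low genes, so the order depends on it. The gene postnb is far more abundant. It had 142, 149 and 149 FPKM in 6PPD heads, which lay close together. In DMSO heads it had 113, 85.8 and 159 FPKM, the third above every 6PPD library. The log2 fold change was 0.34 (SE 0.18, 95% interval −0.07 to 0.74, limma adjusted p = 0.323). Without DMSO replicate 3 it was 0.57 at an adjusted p of 0.0295, and the gene was called higher.

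Tenascin C, a large glycoprotein of developing connective tissue and brain, had 58.0, 68.4 and 67.0 FPKM in 6PPD heads and 57.2, 53.5 and 70.1 FPKM in DMSO heads (0.10, limma adjusted p = 0.635). The fibronectin gene fn1a averaged 12.5 ± 1.40 FPKM in 6PPD heads and 11.0 ± 1.31 FPKM in DMSO heads (0.16, limma adjusted p = 0.453). The second fibronectin gene, fn1b, averaged 1.47 ± 0.177 FPKM in 6PPD heads and 1.98 ± 0.463 FPKM in DMSO heads (−0.26, limma adjusted p = 0.356). The fibrillin fbn2b (0.20), the sparc relative sparcl1 (0.05), the versicans vcana (0.12) and vcanb (0.07) and postna (0.20) all had overlapping groups.

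The genome duplication of bony fishes left many matrix genes in a pair of copies, and 13 such pairs had both copies tested. The ratio of the a to the b copy within each library was compared between the groups, a comparison chosen after the values were seen. None of the 13 pairs was called by limma over all 1635 pairs of genes named in this way, of which 2.39% were called. Ratios did not overlap in 4 of the 13 pairs and in 25.5% of all pairs, and 3 of the 13 passed an unadjusted p of 0.05, as did 19.3% of all pairs. The sources used here do not say how fragments that match both copies were counted.

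Ratios printed and drawn here are of FPKM, while the tested differences are between log2(FPKM + 1) values of the copies, which narrows them for low genes. With a pseudocount of 0.1 in place of 1 the differences were 0.57 for fn1, 0.48 for col14a1 and −0.48 for nid1. The ratio of fn1a to fn1b was 7.89, 9.26 and 8.41 in 6PPD heads and 6.10, 6.30 and 4.66 in DMSO heads (difference on log2(FPKM + 1) 0.43, SE 0.14, limma adjusted p = 0.148). For col14a1a to col14a1b it was 0.117, 0.113 and 0.129 in 6PPD heads and 0.0753, 0.0961 and 0.0844 in DMSO heads (0.42, limma adjusted p = 0.174). The ratio of nid1a to nid1b ran the other way, with 0.131, 0.139 and 0.122 in 6PPD heads and 0.152, 0.216 and 0.188 in DMSO heads (−0.41, limma adjusted p = 0.185). For col1a1a to col1a1b it was 1.57, 1.65 and 1.64 in 6PPD heads and 1.36, 1.49 and 1.48 in DMSO heads (0.17, 95% interval −0.00 to 0.33, limma adjusted p = 0.258). The other 9 pairs overlapped, among them col2a1a to col2a1b with 3.57 ± 0.113 in 6PPD heads and 3.29 ± 0.401 in DMSO heads.

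**Figure D4:**
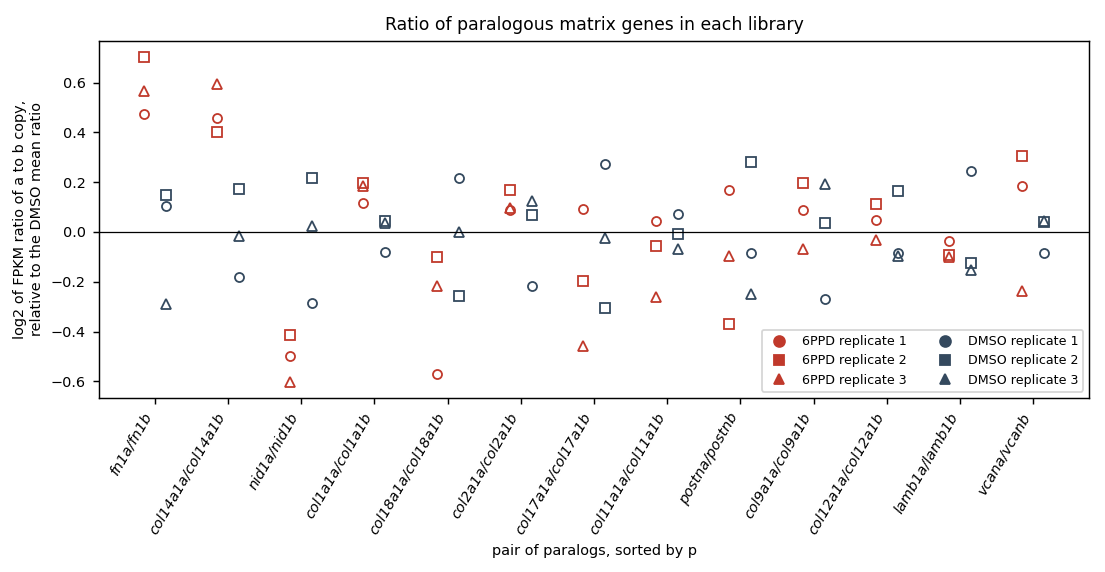
Log2 of the FPKM ratio of the a to the b copy for 13 pairs of paralogous matrix genes in each library, set to 0 at the mean ratio of the DMSO libraries, with 6PPD in red (left) and DMSO dark (right). Pairs are sorted by p, and the first 4 (fn1, col14a1, nid1 and col1a1) are those whose groups did not overlap.

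Ratios were also formed between chains that assemble into 1 molecule. For 10 ratios of partner chains, a two-sided exact permutation test of 3 against 3 libraries cannot give a p below 0.1. Collagen I trimers hold alpha 1 and alpha 2 chains, and the summed level of col1a1a and col1a1b over that of col1a2 was 2.37, 2.43 and 2.36 in 6PPD heads and 2.49, 2.39 and 2.48 in DMSO heads (exact p = 0.2, adjusted over the 10 ratios 0.667). In collagen IX, col9a3 over col9a2 was 0.479, 0.492 and 0.483 in 6PPD heads and 0.537, 0.586 and 0.562 in DMSO heads, the only one of the 10 ratios whose groups did not overlap (exact p = 0.1, adjusted 0.667). The ratio of col4a1 to col4a2 was 0.806 ± 0.0509 in 6PPD heads and 0.762 ± 0.101 in DMSO heads, and that of col4a5 to col4a6 2.85 ± 0.230 in 6PPD heads and 2.92 ± 0.132 in DMSO heads. For lamb1a over lamc1 it was 1.22 ± 0.0310 in 6PPD heads and 1.25 ± 0.124 in DMSO heads.

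The members lay on 24 chromosomes, and 9 pairs of members were neighbours within 50 kb, counting the 2 overlapping models named col6a3 as a pair. In 2 pairs the genes stood head to head. These were col4a6 and col4a5 on chromosome 7, with 752 bases between them, and col4a4 and col4a3 on chromosome 15, which overlap at their starts. On chromosome 9, col4a1 (minus strand, up to 8670158) and col4a2 (plus strand, from 8761099) also face head to head, but beyond the 50 kb limit. Head to head, col4a5 had 53.4 FPKM and col4a6 18.5 FPKM over the 6 libraries. Other neighbours could stand far apart in level. On chromosome 19 col9a2 had 121 FPKM while col16a1, tail to tail with it, had 0.855 FPKM. Tested matrix genes were long, with a median gene length of 5.80 kb in the table, where all tested genes had a median of 2.43 kb.

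The 23 members below the filter had means of 0.0107 to 0.9996 FPKM, and 18 of them were below 0.5 FPKM. Closest to the filter were the aggrecan acanb at 0.9996 FPKM and matn3a at 0.986 FPKM, and just above it were col4a4 at 1.02 FPKM and the shorter col6a3 model at 1.07 FPKM. Among the low members lama2, an alpha chain of muscle laminin, had 0.549, 0.450 and 0.395 FPKM in 6PPD heads and 0.367, 0.112 and 0.377 FPKM in DMSO heads. The groups also did not overlap for col28a1b, which was higher, and col10a1b, which was lower in 6PPD heads, with means for col28a1b of 0.269 ± 0.0670 FPKM in 6PPD heads and 0.116 ± 0.00863 FPKM in DMSO heads. Those of col10a1b were 0.0270 ± 0.00331 FPKM in 6PPD heads and 0.138 ± 0.0305 FPKM in DMSO heads. In all, groups did not overlap for 2 of the 23 that were higher and 1 that was lower. Over all tested genes, those above the filter, 26.3% did not overlap. At the levels of these low members no test was made. Elastin was represented by elnb, at a mean of 0.107 FPKM.

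Of 26 tested genes that fold and hydroxylate collagen chains, 3 were called higher and 1 lower, where 2.26% of all tested genes were called higher and 1.15% lower. Among the matrix genes 0 of 68 were called, and the difference between these counts was not tested. The median of the folding list was 0.10, with 16 of 26 positive, where 61.5% of all tested genes were positive. The collagen chaperone serpinh1b (Hsp47) rose, with 125, 147 and 107 FPKM in 6PPD heads and 43.0, 17.4 and 43.1 FPKM in DMSO heads (log2 fold change 1.94, limma adjusted p = 0.00947). Of the subunits of prolyl 4-hydroxylase, p4ha1b and p4ha2 rose too. The subunits p4ha1a (0.25, limma adjusted p = 0.44) and p4hb (0.02, limma adjusted p = 0.892) were not called. The gene p4ha1b had 19.2, 17.9 and 15.4 FPKM in 6PPD heads and 10.7, 7.14 and 8.59 FPKM in DMSO heads (0.93, limma adjusted p = 0.00947). For p4ha2 the values were 23.8, 22.1 and 21.2 FPKM in 6PPD heads and 14.9, 10.5 and 11.8 FPKM in DMSO heads (0.81, limma adjusted p = 0.00915). Calls of serpinh1b, p4ha1b and p4ha2 held whichever library was left out. The prolyl isomerase fkbp9 fell, with 48.0 ± 0.864 FPKM in 6PPD heads and 59.7 ± 1.24 FPKM in DMSO heads (−0.31, limma adjusted p = 0.0454), and it kept its call in 1 of the 6 fits that left out a library.

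**Figure D5:**
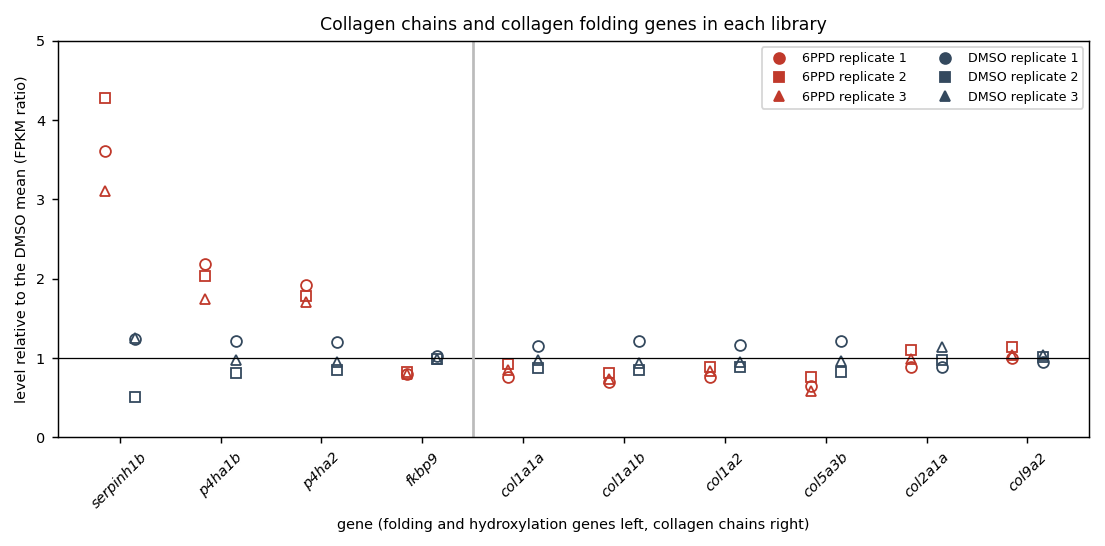
Level in each library relative to the DMSO mean for 4 called collagen folding genes (left of the grey line) and 6 collagen chains (right of it), 6PPD in red and DMSO dark. The 6PPD libraries lie at 3 to 4.5 times the DMSO mean for serpinh1b, and the 6 chains stay between about 0.5 and 1.3 times in both groups. Only called folding genes are drawn, and no chain was called, so the contrast between the sides follows in part from that choice.

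Among enzymes that trim and crosslink collagen, 11 were tested and limma called 0. At an unadjusted p of 0.05 there were 0 higher and 1 lower, the lysyl oxidase loxl2b, with 11.6 ± 0.742 FPKM in 6PPD heads and 13.4 ± 0.298 FPKM in DMSO heads (−0.20, adjusted p = 0.243). The second was pcolce2a (0.29, adjusted p = 0.293), an enhancer of procollagen trimming, and the median was −0.01. Among 20 tested matrix proteases and their inhibitors, 0 were called higher and 2 lower, at a median of 0.03. Over all tested genes 2.26% were called higher and 1.15% lower. The gelatinase mmp9 fell, with 1.13, 1.44 and 1.11 FPKM in 6PPD heads and 3.08, 5.04 and 3.11 FPKM in DMSO heads (−1.07, limma adjusted p = 0.0127), and lost its call without 6PPD replicate 1 or 3. The metalloprotease adamts1 fell too, with 2.51, 2.31 and 3.00 FPKM in 6PPD heads and 4.42, 5.11 and 7.07 FPKM in DMSO heads (−0.84, limma adjusted p = 0.0257), and kept its call in 2 of the 6 fits that left out a library.

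Receptors of the matrix had 23 tested genes, 0 called, 2 higher and 1 lower at an unadjusted p of 0.05 and a median of 0.03. The smallest p belonged to the syndecan sdc2 (0.47, limma adjusted p = 0.0717) and to dystroglycan, dag1 (0.25, limma adjusted p = 0.13). Of 17 tested small proteoglycans and link proteins 0 were called, with 0 higher and 1 lower at the unadjusted p and a median of 0.01. The lowest p there were those of the osteoglycin gene ogna (−0.46, limma adjusted p = 0.0613) and the decorin gene dcn (−0.17, limma adjusted p = 0.285). The shares over all tested genes were 2.26% called higher and 1.15% called lower. Among 40 tested glycoproteins outside the members, 1 was called higher and 0 lower, at a median of 0.08. It was mfap2, a partner of fibrillin in microfibrils, with 38.1 ± 2.14 FPKM in 6PPD heads and 26.6 ± 3.17 FPKM in DMSO heads (0.51, limma adjusted p = 0.0248), and it kept its call in 2 of the 6 fits that left out a library. Of 19 tested regulators of the TGF-beta and YAP pathways, which control matrix genes, 0 were called, 3 higher and 0 lower passed the unadjusted p, and 17 were positive at a median of 0.17. Over all tested genes 61.5% were positive, and 13.4% were higher and 6.93% lower at the unadjusted p. Of the regulators, the lowest p were those of tgif1 (0.27, limma adjusted p = 0.0767) and tgfbr2b (0.33, limma adjusted p = 0.124).

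Lists of connective tissue, notochord, muscle and lens markers gave 0 calls. Of 24 tested markers of fibroblasts and mesenchyme 0 were called by limma, with 2 higher and 2 lower at the unadjusted p and a median of 0.03. Their summed FPKM was 476 to 505 in 6PPD heads and 464 to 501 in DMSO heads. Of 6 notochord markers 0 were called, with 0 and 0 at the unadjusted p and a median of 0.10, and of 19 muscle markers 0, with 1 higher and 2 lower and a median of −0.12. Of 15 lens markers 0 were called, with 1 higher and 0 lower and a median of −0.00. Of 6 tested markers of the ear vesicle, which include the member sparc, 0 were called higher and 1 lower, cldn7b (−0.50, limma adjusted p = 0.0336). Of 16 neuron markers 2 were called higher and 0 lower, elavl3 (0.64, limma adjusted p = 0.0324) and snap25a (0.40, limma adjusted p = 0.0328). Those 3 calls held in 1 or 2 of the 6 fits that left out a library. Of 26 cell cycle genes 14 were called higher and 0 lower, at a median of 0.47. Of these 14 calls 7 held in every fit that left out 1 library. Each of the other 7 was lost without 6PPD replicate 3 and also in another of these fits. Over all tested genes 2.26% were called higher and 1.15% lower.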

How the data were processed

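Poly(A) RNA from 6 libraries of zebrafish embryo heads was analysed, 3 exposed to 6PPD and 3 to DMSO, grouped by the treatment in their labels, with replicate numbers from their titles. Per the deposited table, values are FPKM, fragments scaled by gene length and by the mapped fragments of the library, computed by the authors. Tools listed in the submitters' processing notes, with no version or role, are HISAT2, StringTie, featureCounts and fastp, and the build is GRCz11. The sources used here do not say whether counting used strand. A search for a step of 1 fragment found at best 26.1% to 28.7% of low values within 0.1 of a whole multiple, where an arbitrary step gives 20%, so fragments were not recovered, the depth is unknown and no count model was used.

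The 15320 of 32057 genes that averaged 1 FPKM or more entered a fit by limma 3.58.1 (R 4.3.3) of log2(FPKM + 1), with an intensity trend, 5.56 prior and 4 residual degrees of freedom, and the treatment as its single term. Benjamini-Hochberg adjustment ran over all of these genes, and a gene is called at an adjusted p under 0.05. Intervals are 95% intervals from the moderated SE. Ratios of paralogs were tested in the same way over all 1635 gene pairs whose names differ by a final a or b, a test chosen after the data were seen. Ratios of partner chains were compared by a two-sided exact permutation test, which cannot go below p = 0.1 with 3 against 3. The limma fit of single genes was checked on simulated data drawn from its own fitted variances. The tests of ratios were not checked in this way.

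The members, the classes and the 20 lists of other genes (479 entries, 447 matched by symbol) were chosen with earlier results of these data known. Genes named are, in each class, the 5 tested members with the highest mean and the 2 with the smallest p, their paralogs and partner chains, the laminin and collagen IV chains, and of each list the called genes or else those with the smallest p. Other members were singled out after their values were seen. Alternatives covered the pseudocount, the filter, scaling, a length trend, limma settings, the replicate number as a block, and each library left out.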

Additional observations from a re-analysis of the deposited data

How the results depend on the processing

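The result for the matrix genes held under the 18 alternatives with 2 exceptions: 0 called higher and 0 called lower, except 1 higher without DMSO replicate 3 (postnb) and 1 lower without DMSO replicate 2 (col14a1b), so that leaving out single libraries gave 0 to 1 in each direction. Of 1199 values of single matrix genes over these alternatives, 1087 kept their direction, 2 became calls, and 110, from 33 genes that were uncalled, changed sign; among them col10a1a ranged from −0.41 to 0.33 with single libraries left out. Members at an unadjusted p under 0.05 numbered 5 lower in the main fit. They numbered 10 with median-ratio scaling, 12 with the length trend removed and 10 without DMSO replicate 2. In the other direction, they numbered 2 after rescaling to TPM and without DMSO replicate 1, and 3 with no filter. Without DMSO replicate 3, 6 were higher. Calls over all genes, counted at the adjusted p, moved too, from 176 lower to 244 with median-ratio scaling, 258 with the length trend removed and 80 without DMSO replicate 2. Since the thresholds differ, these calls cannot be set against the counts of members. Without DMSO replicate 3, calls over all genes went from 346 to 805 higher. Shares of all genes at the unadjusted p under these alternatives are not given here. The members' median ranged from −0.09 to 0.09, the fibrillar median was −0.24 but −0.024 with no filter (3 low members added), and the cartilage median ranged from −0.10 to 0.084 when single libraries were left out, positive without DMSO replicate 3. Genes of the other lists called higher numbered 20, but 3 with no filter and 10 to 28 with single libraries left out, and those called lower 9, but 0 with no filter, 5 after rescaling to TPM, 2 without the intensity trend and 0 to 14 with single libraries left out; with no filter serpinh1b, p4ha1b and p4ha2 had adjusted p of 0.0972, 0.0783 and 0.071. Over all genes, calls with no filter numbered 13 higher and 13 lower of 26983, where the main fit gave 346 and 176 of 15320. With single libraries left out, calls over all genes numbered 85 to 805 higher and 72 to 325 lower. The cause of these shifts was not tested. Calls over all genes were 66.3% higher, but 75.1% after rescaling to TPM, 52.9% with quantile normalization, 51.5% with cyclic loess, 50.9% with the length trend removed and 45.5% with median-ratio scaling. Deviations from the group means correlated at 0.0301, 0.181 and −0.0257 between same-numbered libraries and at −0.177 to 0.166 between the others. With 3 libraries per group, these values cannot decide whether the replicate numbers pair the libraries. With the replicate block 0 matrix genes were called higher and 0 lower, and 281 genes higher and 174 lower of all tested. Paralog ratios gave 0 calls in each alternative. An unknown depth limits what can be said of the members below 1 FPKM.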
